A study of Caenorhabditis elegans with 12 samples.

Results

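The genes described here lie on the X chromosome of Caenorhabditis elegans, and their transcripts were counted in late-stage embryos of 6 genotypes by RNA sequencing, with 2 libraries each and 12 in all. The genes were chosen by position and by level: the deposited start, counted from 0, had to lie beyond 207723 on X, and the normalised read count had to reach 10 in 2 or more of the 12 libraries. This gave 2231 genes of the 14640 that passed the same filter in the whole table, and they were set against the 9904 such genes on chromosomes II to V. The left end of X was left out because it lacks reads in one of the mutants, so measured values of that mutant, met-2 set-25 set-32, entered the choice. Of 5966 genes listed on X beyond the left end, 5301 had a read in some library and 2231 passed the filter. Of these, 28 passed through a single genotype.

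The genotypes, as the labels name them, were hpl-2, hpl-2I158A, lin-61, lin-61 hpl-2, met-2 set-25 set-32 and N2, the laboratory wild type. HPL-2 is one of the worm's heterochromatin protein 1 homologs and LIN-61 is an MBT-repeat protein, and both bind histone H3 methylated at lysine 9. MET-2, SET-25 and SET-32 are SET-domain proteins, of which MET-2 and SET-25 deposit that methylation. The name hpl-2I158A denotes a substitution in HPL-2, and lin-61 hpl-2 carries both mutations. The labels give no alleles and do not say that the libraries of a genotype come from separate cultures, so p-values reflect variation among these samples that may be only technical.

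Worms with a pair of X chromosomes are hermaphrodites and worms with a single X are males. In hermaphrodites a condensin-like dosage compensation complex, brought to X by SDC-2, lowers transcription from both X chromosomes so that their output matches that of the male. X is also poor in genes used by the germ line and rich in genes of neurons, muscle and epidermis. Heterochromatin marked by H3K9 methylation lies mostly on the arms of the autosomes, and X carries less of it.

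Of the 2231 X genes, 1551 (69.5%) were protein coding and 585 (26.2%) were annotated as other non-coding RNA. There were also 28 pseudogenes and 28 piRNA genes. More than 10% of the length of 637 genes (28.6%), among them 121 coding genes (7.8% of the coding ones), lay opposite a gene on the other strand. How strand was treated in the counting is not stated, so the reads of such partners could not be told apart, and the overlap is stated beside each gene named below where it exceeds 10%.

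The mutated genes followed the labels. The hpl-2 transcript was at 36.2 and 34.5 normalised counts in hpl-2 and at 30.9 and 49.8 where lin-61 was mutated too, against 304 and 242 in N2; hpl-2I158A had 283 and 244. The lin-61 transcript was at 5.45 to 13.6 in the 4 libraries of its mutants and at 91.9 and 41.4 in N2, and met-2, set-25 and set-32 were each lower in both libraries of their mutant than in both N2 libraries. Depth was 1593546 to 2533102 assigned reads in 11 libraries. Replicate 2 of met-2 set-25 set-32, called the deep library here, had 10243076 and stood apart in other ways. Non-coding RNA took 2.15% of its reads, against 9.91% to 12% elsewhere, and its calls are given with and without it. Genes of adult worms (vitellogenins and sperm genes) were near 0, with 3 of 16 past the filter and sums of 26 to 71.7 normalised counts per library.

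The share of reads that came from X was lowest in the double mutant. As a percentage of the reads on X and II to V, X took 15.77% and 16.0% in hpl-2, 14.6% and 14.54% in hpl-2I158A, and 14.78% and 14.56% when lin-61 alone was mutated. The lin-61 hpl-2 libraries had 13.16% and 13.91%, the met-2 set-25 set-32 libraries 14.47% and 14.75%, and the N2 libraries 15.57% and 16.42%. Both lin-61 hpl-2 libraries lay below all 10 others, hpl-2 overlapped N2, and hpl-2I158A, lin-61 and met-2 set-25 set-32 lay between, with no library of theirs reaching N2. This share is a sum and is carried by the most abundant genes.

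Levels per length put X below the autosomes in every library. Here the log2 normalised count per kilobase of exon of the median coding gene on X was compared with that of the median coding gene on II to V. The difference was -0.31 in each hpl-2 library, -0.49 and -0.50 in hpl-2I158A, and -0.49 and -0.55 for lin-61. The lin-61 hpl-2 libraries had -0.77 and -0.67, the met-2 set-25 set-32 libraries -0.60 and -0.49, and the N2 libraries -0.61 and -0.40. The hpl-2 libraries were the highest of the 12 and the lin-61 hpl-2 libraries the lowest, and the libraries of the other mutants lay inside the range of N2.

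The typical X gene was set against its own level in N2 in the next step. For each gene and library, log2(normalised count + 1) was taken over the N2 mean, and the median over II to V was subtracted from the median over X; this difference is called the X shift here. It was 0.15 and 0.17 in hpl-2, -0.03 and -0.04 in hpl-2I158A, and -0.02 and -0.01 for lin-61. The lin-61 hpl-2 libraries had -0.28 and -0.19, the met-2 set-25 set-32 libraries -0.15 and -0.13, and the N2 libraries -0.05 and 0.05. The standard deviation between replicates, pooled over the genotypes, was 0.042, and that of N2 alone was 0.075. The N2 values mirror each other because they are taken over their own mean. Both hpl-2 libraries lay above and both lin-61 hpl-2 libraries below every N2 library, while those of lin-61 and hpl-2I158A lay inside the N2 range. No p is given for the shift, since the X genes were chosen with results of these data known.

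**Figure D1:**
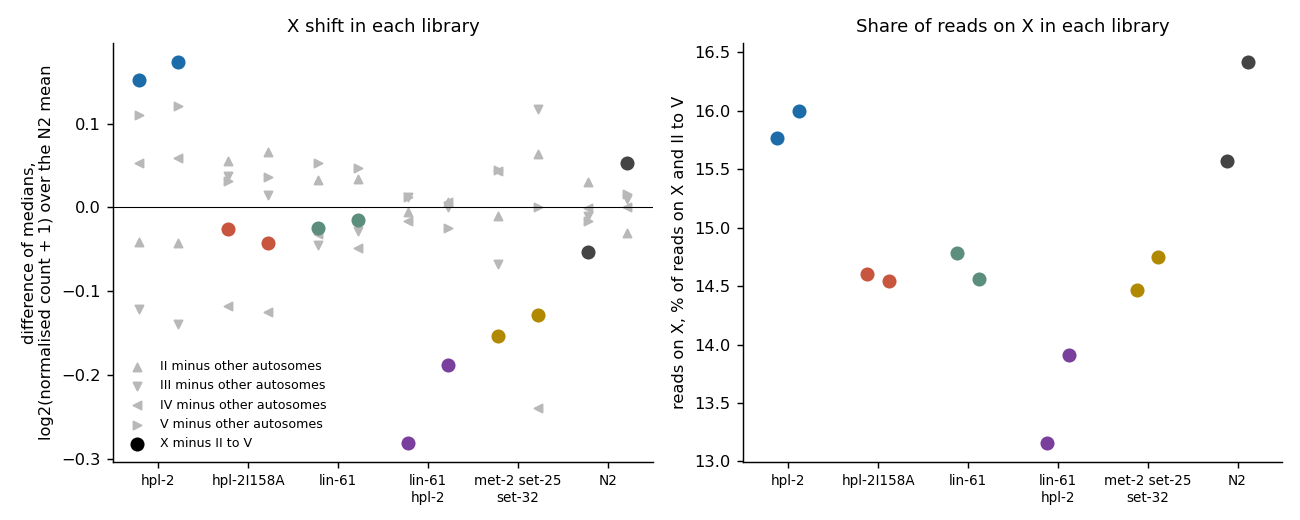
Left, the X shift in each library (colored points, 2 per genotype) with the same measure for each autosome against the other autosomes (grey triangles), on the log2(normalised count + 1) scale over the N2 mean. Right, reads on X as a percentage of reads on X and II to V; this axis does not start at 0. The hpl-2 libraries sit at 0.15 and 0.17 on the left and the lin-61 hpl-2 libraries at -0.28 and -0.19, with N2 at -0.05 and 0.05.

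By comparison, the median log2 fold change of X genes was 0.19 in hpl-2 minus N2, with 0.02 for II to V, and -0.20 in lin-61 hpl-2 minus N2, with 0.04 for II to V. The X shift was therefore 0.17 in hpl-2 and -0.24 in lin-61 hpl-2. It was -0.05 in hpl-2I158A and -0.04 in lin-61. Single autosomes differed from the other autosomes by -0.12 to 0.11 in hpl-2 minus N2, against 0.17 for X. Their range was far narrower in lin-61 hpl-2 minus N2, at -0.01 to 0.01, against -0.24 for X. In hpl-2I158A minus N2 the autosomes ranged from -0.13 to 0.07, and X was within them. Without N2 replicate 1 the X shift was 0.08 in hpl-2, -0.12 in hpl-2I158A, -0.10 for lin-61, while lin-61 hpl-2 had -0.30. Without N2 replicate 2 it was 0.23, 0.04, 0.05 and -0.18 in the same order, so the sign held for hpl-2 and lin-61 hpl-2 and turned for hpl-2I158A and lin-61.

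The mutants were also set against each other without N2. In lin-61 hpl-2 minus hpl-2, a comparison added after the data were seen, the median X gene changed by -0.39 and the median gene of II to V by 0.05, an X shift of -0.44. In hpl-2I158A minus hpl-2 the medians were -0.26 on X and -0.03 on II to V, a shift of -0.23. Single autosomes differed from the other autosomes by -0.13 to 0.13 in lin-61 hpl-2 minus hpl-2. In hpl-2I158A minus hpl-2 they did so by -0.21 to 0.13, with a median of -0.19 on chromosome IV. Over genes of all types, this autosome therefore lay nearly as far down as X. With coding genes alone the medians were -0.165 on X, -0.004 on IV and 0.046 on II to V. Both comparisons share the hpl-2 libraries, and the comparisons with N2 share the N2 libraries, so they are not independent of one another.

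The shift was spread over many genes. In hpl-2 minus N2, 61.0% of X genes and 51.1% of genes on II to V had a fold change above 0. In lin-61 hpl-2 minus N2, 34.9% of X genes and 53.0% of genes on II to V did, and in lin-61 hpl-2 minus hpl-2, 27.7% and 53.0%. The middle of the X distribution and both its sides moved together in the double mutant. There the X genes had a 25th percentile of -0.51 and a 75th percentile of 0.16, against -0.31 and 0.41 on II to V.

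**Figure D2:**
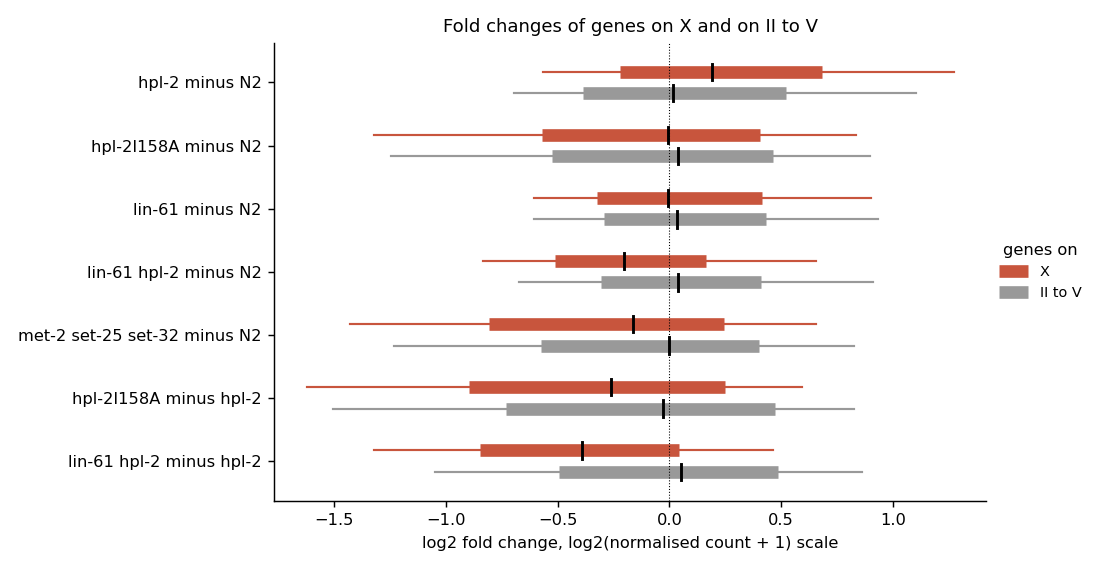
Log2 fold changes of the 2231 X genes (red) and the 9904 genes on II to V (grey) in 7 comparisons, on the log2(normalised count + 1) scale; black ticks are medians, thick bars run from the 25th to the 75th percentile and thin lines from the 10th to the 90th. The X bar lies right of the grey bar in hpl-2 minus N2 (medians 0.19 and 0.02) and left of it in lin-61 hpl-2 minus N2 (medians -0.20 and 0.04).

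In hpl-2 and lin-61 hpl-2 the sign of the shift was the same among low, middle and high genes, with the genes on X and II to V together split into 3 equal classes by mean level. These classes held 853, 783 and 595 X genes from low to high. From the low class up, the X shift in hpl-2 minus N2 was 0.18, 0.08 and 0.10, and that in lin-61 hpl-2 minus N2 was -0.17, -0.28 and -0.27. In the middle and high classes the hpl-2 shift was thus smaller than the 0.17 of all X genes. For lin-61 minus N2 the sign differed between the classes, at 0.02, -0.09 and -0.06. Among the 595 X genes of the high class, the median fold change in hpl-2 was itself below 0, at -0.13, with -0.23 for II to V. With coding genes alone the shift was 0.17 in hpl-2 and -0.23 in lin-61 hpl-2.

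Along the chromosome, cut into 10 equal segments after the data were seen, the sign was the same in all 10 for hpl-2, and likewise for lin-61 hpl-2. In hpl-2 minus N2 all 10 segments lay above the median of II to V, by 0.04 in segment 10 to 0.38 in segment 4. All 10 lay below it in lin-61 hpl-2 minus N2, with differences of -0.31 to -0.15. For lin-61 minus N2, 8 segments lay below and 2 above, and for hpl-2I158A minus N2, 9 lay below and 1 above, with a lowest value of -0.17. Set against hpl-2, the lin-61 hpl-2 segments ran from -0.63 in segment 4 to -0.29 in segment 1. The segments held 160 to 282 X genes. In bins of 1 Mb, 17 of 18 lay above the median of II to V in hpl-2 minus N2, and the right-most lay below it, by -0.05; in lin-61 hpl-2 minus N2 all 18 lay below it.

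**Figure D3:**
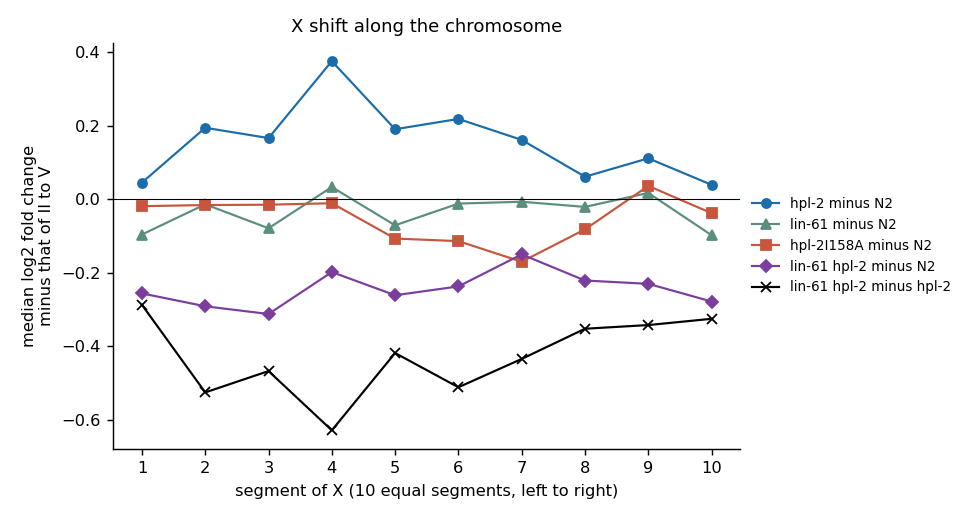
Median log2 fold change of X genes minus the median of II to V, in 10 equal segments of X from left to right, for 5 comparisons. The hpl-2 minus N2 line stays above 0 in all 10 segments and the lin-61 hpl-2 minus N2 line below 0 in all 10, between -0.31 and -0.15.

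Markers of tissues and stages on the other chromosomes moved between genotypes too, and since these are whole embryos, fewer cells of a type and less RNA per cell cannot be told apart. Relative to the mean of all libraries, the median of 19 muscle genes off X was at 0.24 and 0.22 in hpl-2 and -0.32 and -0.21 in lin-61 hpl-2, against -0.18 and 0.21 in N2, on the log2 scale. The median of 35 neuron genes off X was at 0.43 and 0.26 in hpl-2, -0.35 and -0.37 in hpl-2I158A and -0.01 and -0.12 in lin-61 hpl-2, against -0.19 and 0.27 in N2. The median of 35 oocyte and early embryo genes, a list with no gene on X, was at -0.50 and -0.53 in hpl-2, 0.67 and 0.69 in hpl-2I158A and -0.08 and 0.12 in lin-61 hpl-2, against -0.52 and -0.13 in N2. The 24 cilia genes off X had medians of 0.245 and 0.275 in hpl-2. In lin-61 hpl-2 these were 0.237 and 0.064, against -0.117 and 0.119 in N2. The 14 intestine genes off X had 0.009 and 0.162, -0.207 and -0.241, and -0.179 and 0.281 in the same order. For 30 cuticle and epidermis genes off X, the values were 0.050 and 0.068, -0.198 and -0.028, and -0.088 and 0.173. Over the whole lists, 35 of 36 muscle, 55 of 60 neuron and 35 of 39 early genes passed the filter, and every one had a read. Summed levels of the early list were 4971 to 5175 normalised counts in hpl-2, 11240 to 11489 in hpl-2I158A and 7369 to 8023 in lin-61 hpl-2, against 5045 to 6737 in N2. Those of the muscle list were 18170 to 18480 in hpl-2 and 13368 to 14280 in lin-61 hpl-2, against 13975 to 20147 in N2, and those of the neuron list 4627 to 4767 in hpl-2 and 3840 to 3856 in lin-61 hpl-2, against 3938 to 4877 in N2. The part of these differences in the X shift was not tested.

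Single X genes were then tested with limma across all 14640 genes, and those with a Benjamini-Hochberg adjusted p under 0.05 were called. In hpl-2 minus N2, 3 X genes rose and 2 fell (0.224% of X genes; over all genes 0.608% were called, 0.28% higher and 0.328% lower). In hpl-2I158A minus N2, 7 rose and 66 fell (3.27%; over all genes 4%, 0.908% higher and 3.09% lower). In lin-61 hpl-2 minus N2, 1 rose (0.0448%; over all genes 0.273%, 0.246% higher and 0.0273% lower). For lin-61 minus N2, limma called 0 X genes (over all genes 0.0956%), with 166 at an unadjusted p under 0.05, 8 called by DESeq2 and 0 by edgeR. In hpl-2I158A minus hpl-2, 22 rose and 91 fell (5.06%; over all genes 7.84%, 3.59% higher and 4.25% lower). Between lin-61 hpl-2 and hpl-2, limma called 0 X genes (over all genes 0.13%), with 397 at an unadjusted p under 0.05, 40 called by DESeq2 and 0 by edgeR. The share called was lower on X than over all genes in each of these comparisons, a difference that was not tested. Of the X genes, 82 (3.68%) were called in at least 1 of the 5 comparisons with N2, which count the 4 calls of met-2 set-25 set-32 given further on, against 4.84% of genes on II to V, and a single X gene, spat-3, was called in more than 1.

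These counts rest on the spread between the libraries of met-2 set-25 set-32, which enters the error of every comparison. Without the deep library, a setting chosen after the data were seen, 147 X genes were higher and 115 lower in hpl-2 (over all genes 14.4%, 5.68% higher and 8.7% lower). In hpl-2I158A 147 were higher and 270 lower (22%, 9.17% and 12.9%), for lin-61 42 were higher and 62 lower (6.19%, 3.1% and 3.09%), and in lin-61 hpl-2 14 were higher and 82 lower (5.01%, 2.86% and 2.15%). Set against hpl-2, 184 X genes were higher and 392 lower in hpl-2I158A (29.9%, 14.4% and 15.5%), and 57 were higher and 318 lower in lin-61 hpl-2 (19.5%, 11% and 8.46%). Leaving out replicate 1 of that mutant in place of the deep library gave counts about as high, for example 267 X genes in hpl-2 minus N2 and 375 between lin-61 hpl-2 and hpl-2. Leaving out any single library of another genotype had the opposite effect, with 0 to 3 X calls in hpl-2 minus N2, 1 to 24 in hpl-2I158A minus N2 and 0 to 98 in hpl-2I158A minus hpl-2. In that last comparison the count was 0 whichever library of its 2 genotypes was left out. The calls of single genes given below are therefore sensitive to single libraries: of 54 pairs of a named gene and a comparison, 1 (dpy-22 in hpl-2I158A minus N2) passed in every alternative tried and none turned its sign. In the 11-library fit, 14 higher and 82 lower X calls in lin-61 hpl-2 minus N2 stood beside 297 higher and 182 lower calls on II to V.

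**Figure D4:**
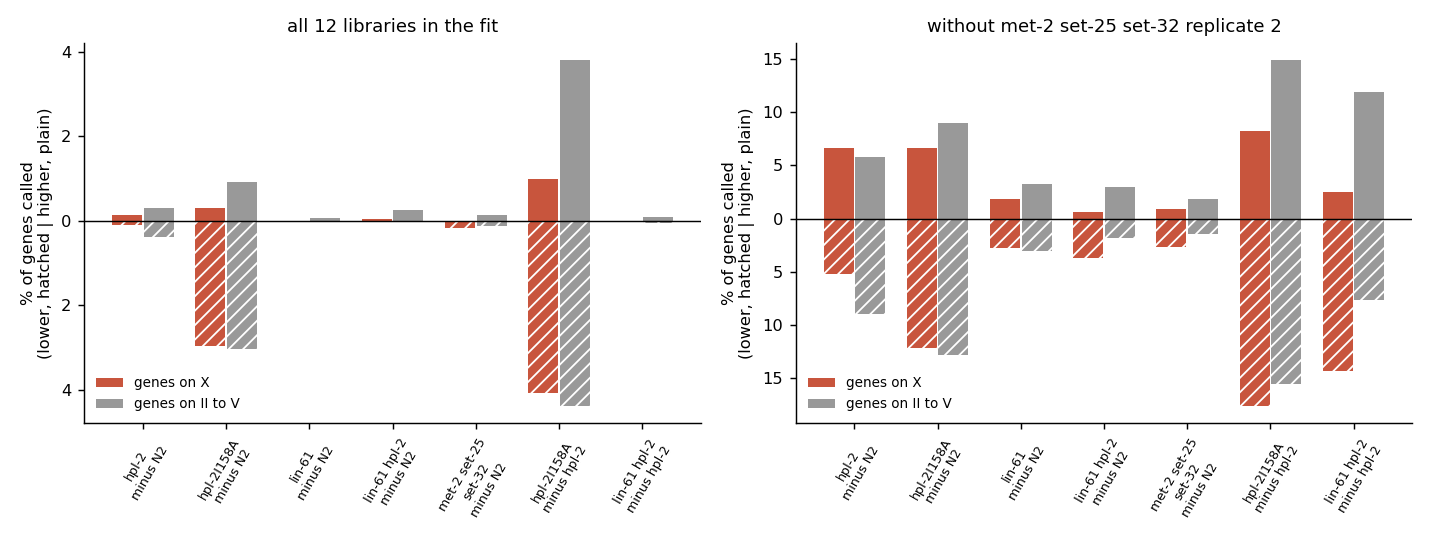
Percentage of genes on X (red) and on II to V (grey) called at a limma adjusted p under 0.05, higher above the line and lower (hatched) below it, with all 12 libraries in the fit (left) and with replicate 2 of met-2 set-25 set-32 left out (right); the vertical scales differ. For lin-61 hpl-2 minus N2 the right panel has 14 X genes above the line and 82 below.

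The 3 X genes that rose in hpl-2 were coding genes at modest levels. Y102A11A.5 (WBcel235 X, 2030959 to 2031588, minus strand) had 123 and 130.2 normalised counts in hpl-2 and 18.7 and 29.2 in N2. It rose by 2.38 ± 0.30 on the log2 scale (SE; limma adjusted p = 0.0102). It was also higher in every library of the other 4 mutants, at 39.7 to 76.3, than in either N2 library, without passing the test there with 12 libraries. The saposin-like gene spp-5 (X, 7319935 to 7320384), of a family of pore-forming antibacterial peptides, had 79.0 and 88.6 in hpl-2 and 12.5 and 23.1 in N2 (log2 2.23 ± 0.39, limma adjusted p = 0.0402). The claudin-like gene clc-5 (X, 7433632 to 7435733) had 87.5 and 108 in hpl-2 and 26.5 and 23.1 in N2 (log2 1.93 ± 0.32, limma adjusted p = 0.0365). In hpl-2I158A minus hpl-2 all 3 fell, with log2 changes of -1.62, -1.44 and -1.23 (limma adjusted p = 0.0174, 0.0468 and 0.0441).

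The X genes that fell in hpl-2 were his-24 and spat-3. The linker histone H1 gene his-24 (X, 14490094 to 14491115), which lies opposite M163.16 over 27.1% of its length, had 3440 and 3486 in hpl-2, against 9438 and 9650 in N2. Its log2 fold change was -1.46 ± 0.24 (limma adjusted p = 0.0365), and in every mutant library it was lower than in both N2 libraries. M163.16 also fell in several mutants in the 11-library fit. The RING-domain gene spat-3 (X, 4596016 to 4605928), whose product belongs to a Polycomb-like histone H2A ubiquitin ligase, had 671 and 792 in hpl-2 and 583 and 694 in hpl-2I158A, against 1371 and 1359 in N2. It fell by 0.90 ± 0.17 in hpl-2 (limma adjusted p = 0.0479) and by 1.10 ± 0.17 in hpl-2I158A (limma adjusted p = 0.00927). In lin-61 and lin-61 hpl-2 it had 974 to 1027, below N2 without passing the test with 12 libraries.

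**Figure D5:**
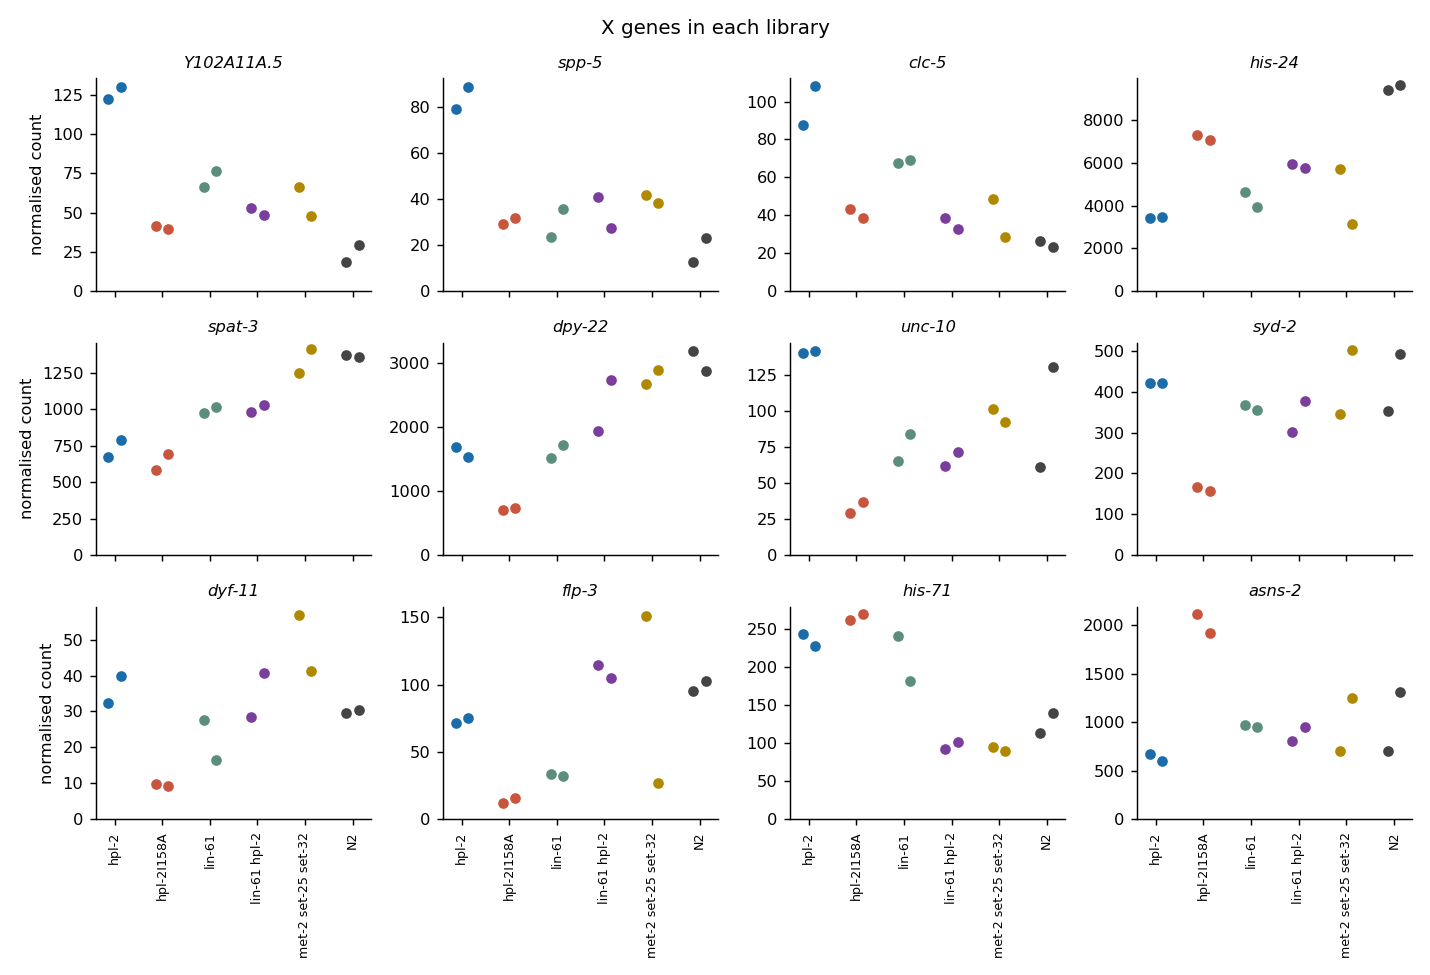
Normalised counts of 12 X genes in each library, 2 points per genotype, each axis starting at 0. The gene his-24 is lower in all 10 mutant libraries than in the N2 libraries at 9438 and 9650, and dpy-22 is lowest in the hpl-2I158A libraries at 701 and 734.

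The point mutant hpl-2I158A had the most X calls against N2, and most were lower. The X gene with the smallest p was dpy-22 (X, 9810202 to 9822273), which encodes the MED12 subunit of the Mediator complex. It had 701 and 734 in hpl-2I158A, against 3195 and 2871 in N2, and fell by 2.08 ± 0.19 on the log2 scale (limma adjusted p = 0.00115). Its level was intermediate in hpl-2, at 1692 and 1524, and it fell in hpl-2I158A minus hpl-2 as well (-1.16 ± 0.19, limma adjusted p = 0.0119).

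Genes of synapses and cilia were among those that fell in hpl-2I158A. unc-10, the worm homolog of the presynaptic scaffold RIM, had 28.9 and 36.7 in hpl-2I158A, against 60.8 and 130.4 in N2 (log2 -1.42 ± 0.34, limma adjusted p = 0.047). The liprin-alpha gene syd-2, also a presynaptic scaffold, had 167 and 156 in hpl-2I158A and 354 and 494 in N2 (log2 -1.37 ± 0.24, limma adjusted p = 0.0142). dyf-11, which encodes an intraflagellar transport protein, had 9.63 and 9.17 in hpl-2I158A and 29.6 and 30.5 in N2 (log2 -1.58 ± 0.39, limma adjusted p = 0.0481). None of the 3 groups overlapped. Against hpl-2, which had 139.9 and 141.7 for unc-10, 422.5 and 422.4 for syd-2 and 32.4 and 39.9 for dyf-11, each of them fell too (limma adjusted p = 0.0122, 0.0133 and 0.023). The intraflagellar transport gene ift-81, 64.9% opposite ags-3, had 18.3 and 10.2 in hpl-2I158A and 70.4 and 54 in hpl-2 (log2 -2.09 ± 0.41, limma adjusted p = 0.0195), and the calcium channel gene unc-2 had 98.3 and 95.8, against 175 and 192 (log2 -0.91 ± 0.24, limma adjusted p = 0.0435).

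As lists, these tissues had 0 to 2 calls each on X. In hpl-2I158A minus N2, 2 of 20 neuron genes on X fell (median log2 change -0.06, and -0.27 for 29 on II to V, of which 3 fell). For cilia it was 1 of 7 on X (median -0.82) and 3 of 17 on II to V (median -0.51). For muscle it was 0 of 16 on X (median 0.21), with 4 of 11 on II to V lower (median -0.60). In the same comparison 3.27% of X genes were called in either direction, and 2.96% of X genes and 3.09% of all genes were called lower.

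Neuropeptide genes, which encode short signalling peptides, were a further list with calls on X. Of 10 on X, 2 fell in hpl-2I158A minus N2 with 12 libraries, beside 3.09% of all genes, and 7 without the deep library, beside 12.9% of all genes. The median log2 change of the 10 was -2.25. Of 25 on II to V, 1 and 3 fell in these fits, with a median of 0.21. All 7 lie wholly opposite another gene, at 2 places on X. There, nlp-45, nlp-22, nlp-23 and nlp-2 lie inside T01B6.1 (X, 2335684 to 2348635), and flp-28, flp-3 and flp-2 lie inside W07E11.1 (X, 10084627 to 10104252). Their log2 changes were between -3.88 and -1.86, while the other 3, which share no such overlap, had -0.08 to 1.21.

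The genes opposite them were not lower in both libraries. In hpl-2I158A, T01B6.1 had 67.4 and 37.7, against 54.5 and 64.6 in N2, and W07E11.1 had 1249 and 1362, against 844 and 1008 in N2. Among the peptides, nlp-22, which promotes the quiescence of larvae before each molt, had 5.78 and 5.09 in hpl-2I158A and 96.6 and 90.2 in N2 (log2 -3.88 ± 0.66, limma adjusted p = 0.0136). flp-3, an FMRFamide-like peptide gene, had 11.6 and 15.3 in hpl-2I158A and 95 and 102.4 in N2 (log2 -2.80 ± 0.60, limma adjusted p = 0.0315). Both were also low in lin-61, with 27.6 and 50 for nlp-22 and 33.7 and 31.8 for flp-3, without passing the test with 12 libraries. The met-2 set-25 set-32 libraries were far apart for flp-3, at 151 in replicate 1 and 26.5 in the deep library.

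Further X genes that fell in hpl-2I158A minus N2 were B0410.1, wholly opposite F52B10.3, with 2.89 and 2.04 in hpl-2I158A, or 3 and 2 reads, against 26.5 and 69.5 in N2 (limma adjusted p = 0.0244), and R07E3.4, with 11.6 and 22.4 in hpl-2I158A and 109 and 76.8 in N2 (log2 -2.43 ± 0.51, limma adjusted p = 0.0296). The homeobox gene ceh-93 had 12.5 and 18.3 in hpl-2I158A and 60.8 and 42.6 in N2 (log2 -1.68 ± 0.37, limma adjusted p = 0.0339). The epidermal matrix gene let-4, wholly opposite C44H4.4, had 219 and 212 in hpl-2I158A and 565 and 403 in N2 (log2 -1.15 ± 0.28, limma adjusted p = 0.047). The naming rule also gave M02E1.4, C23H4.6 and T24C12.1, the last of them wholly opposite T24C12.3. In hpl-2I158A they had 0 to 1.93, 7.71 to 11.2 and 7.13 to 21.2, against 11 to 31.1, 34.1 to 105.9 and 59.2 to 71.9 in N2. In none of these did the groups overlap.

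The 7 X genes that rose in hpl-2I158A included 2 histone genes. The histone H3.3 gene his-71 (X, 7981382 to 7982070) had 261 and 270 in hpl-2I158A, against 114 and 139 in N2 (log2 1.07 ± 0.22, limma adjusted p = 0.0268). The core histone gene his-38 had 1369 and 1355 in hpl-2I158A and 798 and 815 in N2 (log2 0.76 ± 0.18, limma adjusted p = 0.0427). M03F4.6 had 877 and 871, against 304 and 238 in N2 (log2 1.70 ± 0.41, limma adjusted p = 0.0473), and R04D3.3 had 101 and 97.8, against 29.6 and 41.4 in N2 (log2 1.48 ± 0.28, limma adjusted p = 0.0212). The claudin-like gene clc-7 had 63.6 and 74.4 in hpl-2I158A and 28 and 28 in N2 (log2 1.26 ± 0.28, limma adjusted p = 0.0372).

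M03F4.6 and his-71, both named above, and F53B1.2 had more counts in both hpl-2 libraries and both lin-61 libraries than in either N2 library, and fewer with both genes mutated than in these single mutants. M03F4.6 had 758 and 810.3 in hpl-2 and 650.5 and 706 for lin-61, but 314 and 321 with both mutated. his-71 had 243 and 228 in hpl-2 and 241 and 182 for lin-61, but 91.4 and 101 with both mutated. F53B1.2, with 315 and 291 in hpl-2, 231 and 232 in hpl-2I158A, and 259 and 309 for lin-61, had 125 and 101 with both mutated, against 106 and 87.7 in N2. In the 11-library fit M03F4.6, his-71 and F53B1.2 passed the test against N2 in hpl-2, hpl-2I158A and lin-61, and had log2 changes of -1.30, -1.28 and -1.43 in lin-61 hpl-2 minus hpl-2, where they fell; with 12 libraries, his-71 and M03F4.6 in hpl-2I158A were the only ones of these calls. They were picked after their values were seen, so the pattern is given as a description.

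Among the X genes of the dosage compensation pathway, calls against N2 were few with 12 libraries. Of 6 on X (xol-1, sex-1, fox-1, ceh-39, sdc-1 and sdc-2), sdc-2 was called against N2, in hpl-2I158A, with 56.8 and 73.4 there, against 649.5 and 317 in N2 (log2 -2.79 ± 0.43, limma adjusted p = 0.00927; 15.4% of its length lies opposite anr-16). It had 195 and 144 in hpl-2 and 535 and 392 with lin-61 mutated as well. The median log2 change of the 6 in hpl-2I158A minus N2 was -0.01, and of 7 genes of the list on II to V 4 fell, with a median of -0.90. In hpl-2 minus N2, 5 of the 6 lay below 0, with a median of -0.58, and 0 passed limma's test with 12 libraries. Without the deep library 3 of the 6 (sdc-2, sex-1 and sdc-1) fell, beside 8.7% of all genes, as did 4 of the 7 on II to V, whose median was -0.40.

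Among the 22 X genes that rose in hpl-2I158A minus hpl-2 were metabolic enzymes, germ granule genes and homeobox genes. The asparagine synthetase gene asns-2 (X, 8748434 to 8750969) had 2116 and 1920 in hpl-2I158A and 673 and 599 in hpl-2, and rose by 1.67 ± 0.31 on the log2 scale (limma adjusted p = 0.0174). meg-1 and meg-3, which encode germ granule proteins of the early embryo, had 189 and 193 in hpl-2I158A against 63.8 and 74.4 in hpl-2 for meg-1 (log2 1.46 ± 0.33, limma adjusted p = 0.0299), and 266 and 249 against 101 and 128 for meg-3 (log2 1.17 ± 0.25, limma adjusted p = 0.0241). ceh-39, a ONECUT homeobox gene and X signal element in sex determination, had 363 and 328 in hpl-2I158A and 185 and 145 in hpl-2 (log2 1.07 ± 0.26, limma adjusted p = 0.0355). Its neighbor ceh-21, also a ONECUT gene, had 204 and 194 in hpl-2I158A and 96.1 and 79.7 in hpl-2 (log2 1.18 ± 0.26, limma adjusted p = 0.0273).

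The oocyte and early embryo list, which has no gene on X, was also higher in both hpl-2I158A libraries than in both hpl-2 libraries, as given above, and its part in these calls was not tested. The tyrosine aminotransferase gene tatn-1 (80 and 58.1 in hpl-2I158A, 19 and 18.6 in hpl-2, limma adjusted p = 0.0421) and the acyl-CoA dehydrogenase gene acdh-7 (837 and 860.0 in hpl-2I158A, 512 and 505 in hpl-2, limma adjusted p = 0.0378) rose, with log2 changes of 1.80 and 0.74. his-24, his-38 and his-40, which are 3 of the 4 histone genes on X past the filter, rose as well, with log2 changes of 1.05, 0.77 and 0.87. On II to V 19 of 26 histone genes rose in the same comparison, and over all genes 3.59% were called higher.

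Also among the 91 X genes that fell between these genotypes were the troponin I gene tni-1, with 341 and 356 in hpl-2I158A and 579.5 and 522 in hpl-2 (log2 -0.66 ± 0.17, limma adjusted p = 0.0421), and the SET-domain gene set-6, with 27 and 15.3 in hpl-2I158A and 60 and 76.2 in hpl-2 (log2 -1.68 ± 0.38, limma adjusted p = 0.0287). The neuronal calcium sensor gene ncs-3 had 0.963 and 2.04 in hpl-2I158A, or 1 and 2 reads, and 23.8 and 16.8 in hpl-2 (limma adjusted p = 0.0299). The naming rule gave further W04G3.7, wholly opposite sulp-7, with 0.963 and 4.08 in hpl-2I158A and 34.3 and 29.2 in hpl-2, and C16E9.1 and actl-1, with 1.93 to 6.11 in hpl-2I158A and 17.1 to 45.2 in hpl-2. Among the higher genes it gave F39F10.3 and metl-9, with 16.3 to 41.8 in hpl-2I158A and 5.71 to 14.2 in hpl-2.

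The single X call in lin-61 hpl-2 minus N2 was F41G4.7, with 91.4 and 32.8 in lin-61 hpl-2, against 3.12 and 7.31 in N2 (log2 3.26 ± 0.55, limma adjusted p = 0.0457). It shares 39.4% of its length with a gene on the same strand. No X gene passed the test as lower there with 12 libraries, and those named next did so in the 11-library fit, which leaves out the deep library. unc-3, the transcription factor that specifies cholinergic motor neurons, had 14.8 and 14.7 in lin-61 hpl-2, against 29.6 and 46.3 in N2; hpl-2 had 38.1 in each library (log2 -1.27 ± 0.32 against N2, limma adjusted p = 0.033 in that fit, 0.264 with 12 libraries). hbl-1, a Hunchback-like factor of developmental timing, had 586 and 561 in lin-61 hpl-2, against 779 and 1105 in N2 (log2 -0.69 ± 0.15, limma adjusted p = 0.0171 in that fit, 0.391 with 12 libraries). In the same fit hbl-1 was called higher in another mutant against N2. nhr-25, a nuclear hormone receptor of the epidermis, had 92.7 and 54.3 in lin-61 hpl-2, against 151 and 145 in N2 (log2 -1.05 ± 0.23, limma adjusted p = 0.0221 in that fit, 0.297 with 12 libraries).

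Against hpl-2, lin-61 hpl-2 was lower for X genes of several lists in the 11-library fit. Of 16 muscle genes on X, 7 fell (median log2 change -0.57), and on II to V 6 of 11 fell (median -0.58). Of 20 neuron genes on X, 6 fell (median -0.49, with 3 of 29 and -0.41 on II to V). Of 10 hedgehog-related and patched-related genes on X, many of which act in the epidermis and its cuticle, 6 fell (median -0.98, with 7 of 31 and -0.48 on II to V). Of 17 nuclear hormone receptor genes on X, 5 fell (median -0.46, with 6 of 117 and -0.29 on II to V). These stand beside the 318 of 2231 X genes (14.3%) that fell in this comparison in that fit, and beside 8.46% of all genes. None of them was called with all 12 libraries. Other lists had X medians above 0 in this comparison. These included 6 sex signal and dosage compensation genes (0.24), 10 chromatin genes (0.21) and 12 homeobox genes (0.12). Among the 57 X genes called higher in the 11-library fit were sdc-2, his-24, dpy-22, ceh-21, meg-1, kqt-1 and acdh-7. None of the 57 was called with all 12 libraries.

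An example of the genes that fell in that comparison was the patched-related gene ptr-5. It had 32.1 and 38.5 in lin-61 hpl-2 and 84.7 and 86.8 in hpl-2 (log2 -1.26 ± 0.24, limma adjusted p = 0.00338 in that fit, 0.118 with 12 libraries). The hedgehog-related gene wrt-9 had 40.8 and 21.5 in lin-61 hpl-2 and 99.9 and 87.7 in hpl-2 (log2 -1.63 ± 0.35, limma adjusted p = 0.00662 in that fit, 0.0912 with 12 libraries). The muscle gene dim-1 had 211 and 195 in lin-61 hpl-2 and 349 and 327 in hpl-2 (log2 -0.73 ± 0.17, limma adjusted p = 0.00923 in that fit, 0.144 with 12 libraries). lin-14, a heterochronic factor, had 71.7 and 53.2 in lin-61 hpl-2 and 161 and 207 in hpl-2 (log2 -1.55 ± 0.33, limma adjusted p = 0.00586 in that fit, 0.0912 with 12 libraries). In N2, lin-14 had 65.4 and 173, a range that covers the upper lin-61 hpl-2 library and the lower hpl-2 library.

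Some X genes rose in several mutants in the 11-library fit, among them M03F4.6, his-71 and F53B1.2, given above. Other, abundant X genes fell in several mutants in that fit. hsp-3, the endoplasmic reticulum chaperone BiP, had 3492 and 3319 in hpl-2, 3588 and 3388 for lin-61, and 3694 and 4190.0 with both mutated, against 5276 and 5747 in N2; hpl-2I158A had 5692 and 5402. The elongation factor gene eef-1A.2 had 1559 and 1711 in hpl-2, 1771 and 1558 for lin-61, and 1644 and 1805 with both mutated, against 2651 and 2961 in N2. The histone H1-like gene hil-3 had 825 to 1258 in the 6 libraries of these mutants, against 1729 and 1702 in N2. In these mutants no library reached N2. For eef-1A.2 the log2 changes were -0.78, -0.75 and -0.70 in these mutants, in that order (limma adjusted p = 0.000574, 0.00133 and 0.00291 in the 11-library fit; 0.0875, 0.201 and 0.18 with 12 libraries). These 3 comparisons share the N2 libraries, and the X share of reads, a sum, was below N2 for lin-61, alone or with hpl-2, and overlapped N2 in hpl-2.

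The mutant met-2 set-25 set-32 entered the choice of the X genes, so its values are described without being read as results. In it, 0 X genes were called higher and 4 lower (0.179%; over all genes 0.328%, 0.123% higher and 0.205% lower). Without the deep library, 20 were called higher and 59 lower (3.54%; over all genes 3.46%, 1.75% higher and 1.71% lower), in a fit that takes the single library left to vary like the other genotypes. T14G12.11 had 2.77 and 0.667 normalised counts there, against 20.2 and 21.9 in N2. ttr-6 had 0 and 0.667 there, against 20.2 and 15.8 in N2 and 15.8 to 28.4 in the other mutants. The X shift was -0.16 with all genes, -0.08 with coding genes and -0.15 without the deep library.

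At the left end, 49 genes were listed and 21 of them passed the filter. Just outside the boundary, chkr-1 (X, 182691 to 191193) had no read in either met-2 set-25 set-32 library, against 77.9 and 31.7 in N2, T08D2.8 had none either, against 29.6 and 48.7, and WBGene00022227, which ends at 207723, had 1.39 and 0.445, against 38.9 and 26.8. Just inside, Y73B3B.1 (X, 209108 to 211241; 58.4% opposite Y73B3B.3) had 0 and 0.222 there, against 4.67 and 9.75 in N2, so the first gene past the boundary among the 2231 was near 0 there too. R57.2, which starts at 297234, had 27.7 and 32.5 there, against 12.5 and 18.3 in N2, and gcp-2.1 had 48.5 and 70.5, against 48.3 and 46.3.

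In the authors' deposited table of comparisons, X genes with an adjusted p under 0.05 numbered 26 higher and 29 lower in hpl-2, 21 and 121 in hpl-2I158A, 6 and 9 for lin-61, while lin-61 hpl-2 had 1 and 3, each against N2. The X genes with any adjusted p numbered 1619, 2090, 1389 and 2230 in that order. On II to V, 107 were higher and 216 lower of 7597 in hpl-2, and 198 and 541 of 9296 in hpl-2I158A. There lin-61 had 56 and 48 of 6703, and lin-61 hpl-2 had 55 and 6 of 9887. The median log2 fold change of X genes in the authors' deposited table was 0.17, -0.04, -0.03 and -0.23 in the same order, after turning the sign round so that the mutant stands on top.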

How the data were processed

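RNA from late-stage embryos was sequenced as oligo(dT)-selected, strand-marked libraries, per the labels' protocols. STAR, featureCounts and DESeq2 appear in the submitters' processing notes, as do the builds WBcel235 and ce11; for versions and strand setting, "not given in the sources used here" applies. Deposited by the authors were normalised read counts, a signal of reads divided by 1 size factor per library: at a tolerance of 1e-06, 100% of values gave whole reads. The second deposited table holds the authors' p-values, adjusted p-values and log2 fold changes. Positions are on WBcel235, counted from 1; names came from Ensembl 115 (46817 identifiers matched, 87 did not). No sequences were used here.

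Values were tested with limma 3.58.1 (limma-trend, R 4.3.3) on log2(normalised count + 1), which understates changes of low genes, in 1 fit of all 12 libraries with genotype as the only term (6 residual and 4.73 prior degrees of freedom), adjusted over the 14640 genes that reached 10 in 2 or more libraries. On recovered reads, edgeR 4.0.16 and DESeq2 1.42.0 were alternatives. The fit was tested on simulated counts, where more of its calls were false than the 0.05 threshold implies. That simulation gave every gene and library the same dispersion (spread beyond counting noise) and held no library that stands apart. It therefore does not cover the spread between the met-2 set-25 set-32 libraries. Depth was 1593546 to 10243076 reads per library; it limits genes near 10. X genes were named by a rule. Among coding genes past the threshold with a mean of at least 20 in either genotype, it took the 8 largest changes each way. It also took list members past the threshold (up to 4 per list), genes called in several comparisons or in opposite directions, and genes beside the left-end boundary. Genes from the fit that leaves out replicate 2 of met-2 set-25 set-32 (11 libraries) were chosen after seeing the data. The X genes, lists and comparisons were chosen with earlier results of these data known. No correlation of same-numbered replicates between genotypes was above 0.156, and the libraries were not paired by number in the main fit. A weak correlation cannot show that same-numbered libraries were prepared apart.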

Additional observations from a re-analysis of the deposited data

Results flagged for a closer look

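The X shift that goes with the hpl-2 mutation had opposite signs in the 2 backgrounds. It was 0.16 with lin-61 intact (hpl-2 at 0.15 and 0.17, N2 at -0.05 and 0.05) and -0.22 with lin-61 mutated (-0.215 on the log2 scale; lin-61 hpl-2 at -0.28 and -0.19, lin-61 at -0.02 and -0.01), a difference of 0.379. All hpl-2 libraries lay above all N2 libraries and all lin-61 hpl-2 libraries below all lin-61 libraries. This difference was not tested. Values of the off-X tissue lists in hpl-2, lin-61 hpl-2 and N2 are given in the report. In lin-61, the off-X medians were 0.027 and -0.025 for muscle and -0.024 and 0.153 for neurons. Those of the oocyte and early embryo list were 0.088 and 0.090. The part of these lists in the difference was not tested.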

How the results depend on the processing

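Leaving out libraries moved the count of X calls most, with 0 to 267 in hpl-2 minus N2, 1 to 417 in hpl-2I158A minus N2, 0 to 107 for lin-61 and 0 to 109 in lin-61 hpl-2. The ranges were 0 to 701 for met-2 set-25 set-32, 0 to 580 in hpl-2I158A minus hpl-2 and 0 to 375 in lin-61 hpl-2 minus hpl-2. The X shift under the same omissions was 0.082 to 0.228 in hpl-2, -0.124 to 0.038 in hpl-2I158A (reversed without N2 replicate 2), -0.104 to 0.053 for lin-61, -0.301 to -0.178 in lin-61 hpl-2 and -0.244 to -0.094 for met-2 set-25 set-32, while it was -0.245 to -0.220 in hpl-2I158A minus hpl-2 and -0.481 to -0.383 in lin-61 hpl-2 minus hpl-2. On recovered reads DESeq2 called 27 X genes in hpl-2, 124 in hpl-2I158A, 8 for lin-61, 35 for met-2 set-25 set-32 and 40 in lin-61 hpl-2 minus hpl-2; edgeR called 3 in hpl-2, 37 in hpl-2I158A and 0 in lin-61 hpl-2. With no filter on low values, calls were 2 in hpl-2, 22 in hpl-2I158A, 0 in lin-61 hpl-2, 2 for met-2 set-25 set-32 and 44 in hpl-2I158A minus hpl-2; the shift was 0.221 in hpl-2, 0.000 in hpl-2I158A, 0.000 in lin-61 hpl-2, 0.000 for met-2 set-25 set-32, -0.278 in hpl-2I158A minus hpl-2 and -0.320 in lin-61 hpl-2 minus hpl-2. With a filter of 20 in 4 libraries the shift was 0.123 in hpl-2 and -0.186 in hpl-2I158A minus hpl-2, with 0 calls in lin-61 hpl-2, 2 for met-2 set-25 set-32 and 4 in lin-61 hpl-2 minus hpl-2. With a pseudocount of 4, lin-61 hpl-2 minus hpl-2 had 5 calls and a shift of -0.394. With the left end included, calls were 1 for lin-61, 2 in lin-61 hpl-2 and 17 for met-2 set-25 set-32. With protein-coding genes only, met-2 set-25 set-32 had 2 calls and a shift of -0.079, and the X share of reads was 14.27% in hpl-2I158A, 14.39% for lin-61 and 14.33% for met-2 set-25 set-32, against 15.29% in N2. A replicate block, which treats same-numbered libraries as matched, left 2 X calls in hpl-2 and 0 in lin-61 hpl-2. The cause of these changes was not tested. Of 54 named gene and comparison pairs, 1 (dpy-22 in hpl-2I158A) passed under all 20 alternatives and 0 reversed. With 2 libraries a genotype at this depth, genes near 10 normalised counts have wide errors.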
